A study of Rattus norvegicus with 21 samples.

Results

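The gene Rpl12 and the annotated loci that resemble it were followed through rat liver, library by library, to see whether reads moved between them or their summed level changed. They were chosen by name: every entry of the deposited tables called Rpl12, AABR07070810 or LOC102555453 was taken, which gave 4 entries of 32623 in each of 2 tables, because the symbol LOC102555453 names both an entry on chromosome X and an entry on chromosome 7. AABR07070810 drew attention through its difference between early weaned and control livers at day 23 (d23), so the values of that comparison chose the set and are given as a description, without a test. All 4 entries passed the filter on low counts in both tables.

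RNA-seq was done on 21 liver libraries labelled by strain and treatment, 3 per group. Wistar rats were early weaned or controls and were sampled at d23 and d63, and SD rats were early weaned or controls at d211. A further early weaned SD group at d211 drank water with 1.5% leucine. Early weaning, a removal of pups from the dam before the usual age, was common to that group and the early weaned group without leucine. The 2 strains were never the same age, so strain and age cannot be told apart between the tables. Nothing in the labels ties the 3 libraries of a group to different animals, so each test rests on the spread among libraries, which may be technical.

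Rpl12 encodes the ribosomal protein L12, also called uL11, which sits at the base of the stalk of the large ribosomal subunit, next to the acidic proteins made by Rplp0, Rplp1 and Rplp2. The stalk is where translation factors dock and have their GTP hydrolysis stimulated. Genes for ribosomal proteins are transcribed strongly in liver, and reverse-transcribed mRNA has left many intronless copies of them in mammalian genomes. Such a copy is often nearly identical to the parent mRNA, and short reads from one can be assigned to the other.

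The 4 entries differ in structure. The tables place Rpl12 (ENSRNOG00000016220) on chromosome 3 from 12009578 to 12011666, plus strand, a span of 2089 bases, whereas the counts and FPKM values imply a counted length of 603 bases, shorter than the span as for a spliced gene. AABR07070810 (ENSRNOG00000061579) lies on chromosome 8 from 85489553 to 85490050, plus strand, and its description names it as ribosomal protein L12, pseudo 1. Its listed gene type is nonetheless protein-coding. Its span of 498 bases and its implied length of 513 bases are about equal. The X-linked LOC102555453 (ENSRNOG00000028993), described as a 60S ribosomal protein L12-like gene, runs from 1345684 to 1346181 on the minus strand, also over 498 bases, with an implied length of 512. The LOC102555453 entry on chromosome 7 (ENSRNOG00000029115) runs from 59762502 to 59763219, minus strand, over 718 bases with an implied length of 739. The span-to-length comparison is that of a single uninterrupted stretch for each of the 3 copies. The tables do not name the rat build of these coordinates and mark no exons.

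The RefSeq promoter windows of Rpl12 and of the LOC102555453 symbol are shown because they show how unlike the surroundings of a parent gene and of a copy can be. Each runs 5′ to 3′ from 100 bases before to 30 bases after the annotated start, in build GRCr8, and capitals mark the motif GGGCGG, the core of a GC box. The Rpl12 window is chr3:36661840-36661969, plus strand, and the LOC102555453 window is chrX:3750798-3750927, minus strand.
Rpl12: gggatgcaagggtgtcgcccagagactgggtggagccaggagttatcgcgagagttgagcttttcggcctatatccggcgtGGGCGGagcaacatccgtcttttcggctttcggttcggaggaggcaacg
LOC102555453: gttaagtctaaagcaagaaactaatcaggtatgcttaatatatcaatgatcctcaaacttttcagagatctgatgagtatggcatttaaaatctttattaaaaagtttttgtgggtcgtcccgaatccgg

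Over the full window of 300 bases in the RefSeq table, GC content was 58.3% for Rpl12 and 34.7% for LOC102555453, against a median of 51.7% over 33469 windows. Lower GC was found in 69.5% of all windows for Rpl12 and in 4.1% for LOC102555453. On either strand GGGCGG occurred 1 time in the Rpl12 window and 0 times in that of LOC102555453, and 33.1% of all windows held it. TATAAA, searched on both strands too, was in 0 of these windows and in 14.2% of all. These matches describe letters in a window and nothing about the factors that might bind there. RefSeq lists 17 rat symbols of this family, 5 as protein-coding genes and 12 as pseudogenes, of which 2 are symbols in the tables. The description of AABR07070810 carries the NCBI gene number of another of them, Rpl12-ps1, listed as a pseudogene. Mrpl12, the mitochondrial ribosomal protein of a similar name, is a different gene and was not added.

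Liver identity was checked with 8 hepatocyte genes, whose summed FPKM was 55840 to 113300 per library, against 75.5 to 452 for 6 Kupffer cell genes, 8.07 to 67.6 for the 3 of 4 endothelial genes found, 8.03 to 31.7 for 4 stellate cell genes, 5.85 to 29.4 for 3 bile duct genes and 1.26 to 5.85 for 4 lymphocyte genes. No marker that was found was at 0 in all libraries. Alb was the highest of the hepatocyte genes and Epcam of the bile duct genes in every library. A difference in either sum can therefore rest on 1 gene. FPKM is the number of fragments scaled to transcript length and to the fragments of the library, a level per length that can be compared between entries. Total counts ran from 52054644 to 75118153 units per library, where low values pile up at multiples of 4. The entries held between 219 units, for the chromosome 7 entry in 1 leucine library, and 13923 units, for Rpl12. In bulk tissue, fewer cells of a type and less RNA per cell cannot be told apart.

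Rpl12 was the most abundant of the 4 entries in all 21 libraries. In d23 controls it stood at 234, 232 and 207 FPKM in replicates 1, 2 and 3, and in d23 early weaned livers at 338, 327 and 280. All early weaned values were above all control values. At d63 the controls had 97.6, 188 and 109 FPKM, and the early weaned livers had 95.3, 74.0 and 81.7, each below the lowest control by a margin smaller than the spread among controls. In SD rats at d211 Rpl12 stood at 181, 236 and 238 FPKM in controls, at 360, 303 and 246 in early weaned livers, and at 205, 251 and 269 with leucine. The early weaned values without leucine were again all above the controls, with replicate 3 close to the upper end of the controls, and the leucine group overlapped both. The order of group means within Wistar rats was early weaned d23 (315 ± 30.8, SD, n = 3), control d23 (224 ± 14.99), control d63 (131 ± 49.0) and early weaned d63 (83.7 ± 10.8).

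AABR07070810, the chromosome 8 entry described as a pseudogene, showed the widest relative swings. It stood at 123, 153 and 114 FPKM in d23 controls and at 30.3, 31.7 and 26.9 in d23 early weaned livers, with a wide gap between the groups. At d63 it was 74.5, 55.0 and 67.4 FPKM in controls and 80.2, 55.2 and 65.9 in early weaned livers, which overlapped fully. At d211 the controls had 93.1, 103 and 116 FPKM. The early weaned livers had 19.4, 8.53 and 114: replicates 1 and 2 lay far below every control, and replicate 3 lay within the control range. With leucine the values were 90.6, 45.9 and 59.9 FPKM, all below the lowest control, with 1 of them close to it.

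The X-linked LOC102555453 stood at 156, 120 and 127 FPKM in d23 controls and at 70.7, 71.3 and 53.9 in d23 early weaned livers, again without overlap. At d63 it was 43.9, 50.2 and 42.4 in controls and 66.2, 48.1 and 52.4 in early weaned livers, which overlapped. At d211 the controls had 74.3, 105 and 103 FPKM, the early weaned livers 59.6, 47.1 and 112, and the leucine group 79.8, 72.8 and 55.3. Here too early weaned replicate 3 stood apart from replicates 1 and 2 and beside the controls.

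The LOC102555453 entry on chromosome 7 had the lowest level, between 4.88 and 24.1 FPKM over all libraries. Its d23 controls had 15.6, 18.1 and 11.99 FPKM and its d23 early weaned livers 8.18, 6.76 and 8.77. The highest value, 24.1, was that of d63 control replicate 3, whose group otherwise had 7.75 and 8.21. In the other 4 groups it lay between 4.88 and 10.4 FPKM, and all groups compared there overlapped.

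**Figure D1:**
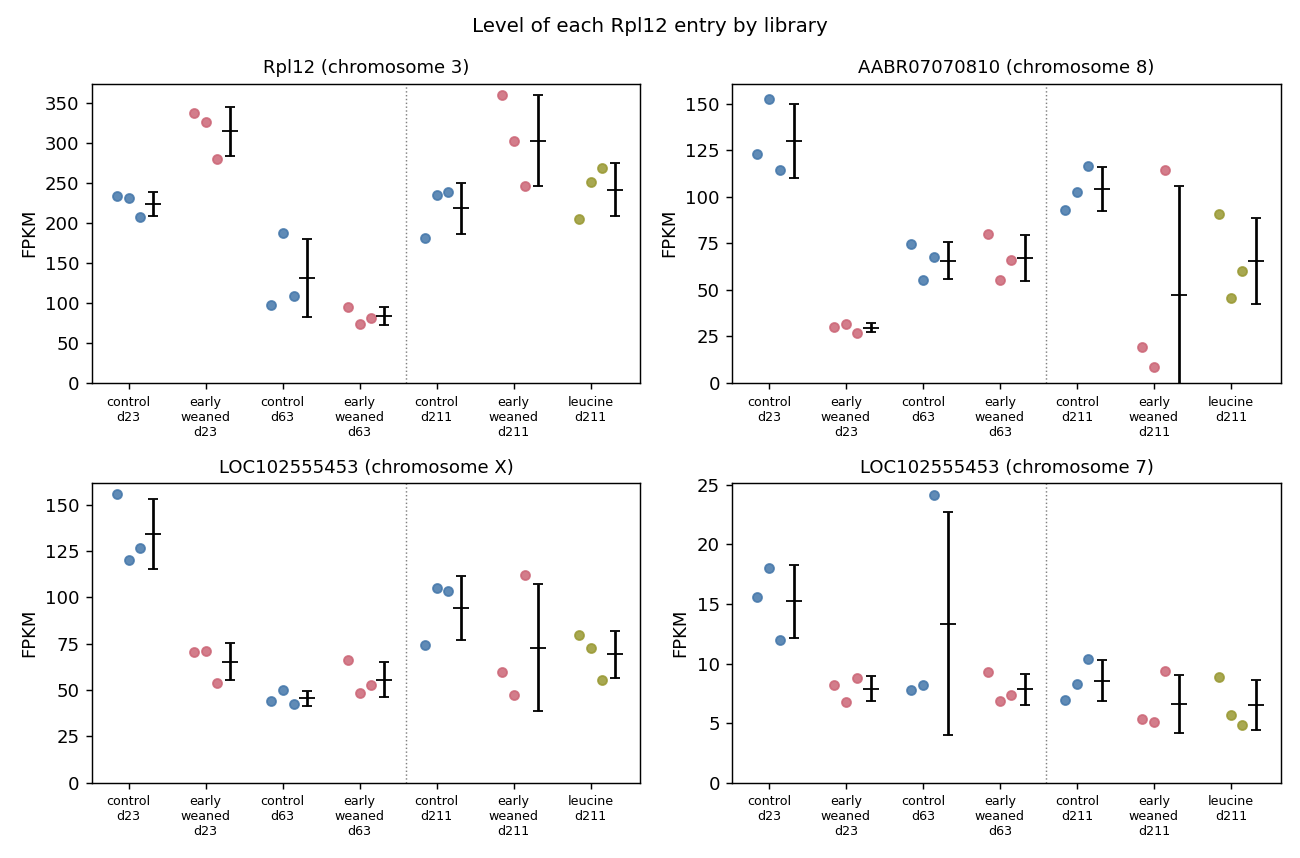
Level of each entry in FPKM (y axis, a separate scale per panel) by group (x axis), with 1 point per library in the order of replicates 1 to 3 and a bar for the mean ± SD of 3; the dotted line separates the Wistar from the SD table, and a bar that would pass below 0 is cut there. Rpl12 is high and AABR07070810 low in the early weaned d23 libraries, and early weaned d211 replicate 3 has 114 FPKM of AABR07070810 beside 19.4 and 8.53 in the other 2.

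The summed level was then compared by library. The 4 entries together had 529, 523 and 460 FPKM in d23 controls and 447, 437 and 370 in d23 early weaned livers. The sums did not overlap, but the margin between the groups was small, and in CPM, the counts scaled to the library total alone, they did overlap, with 294, 293 and 256 in controls against 261, 254 and 216. At d63 the sums were 224, 301 and 243 FPKM in controls and 251, 184 and 207 in early weaned livers. At d211 they were 356, 451 and 468 in controls, 444, 364 and 482 in early weaned livers, and 384, 376 and 389 with leucine. Groups of the same age overlapped at d63 and d211. Within Wistar rats, every d63 sum was below every d23 sum.

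**Figure D2:**
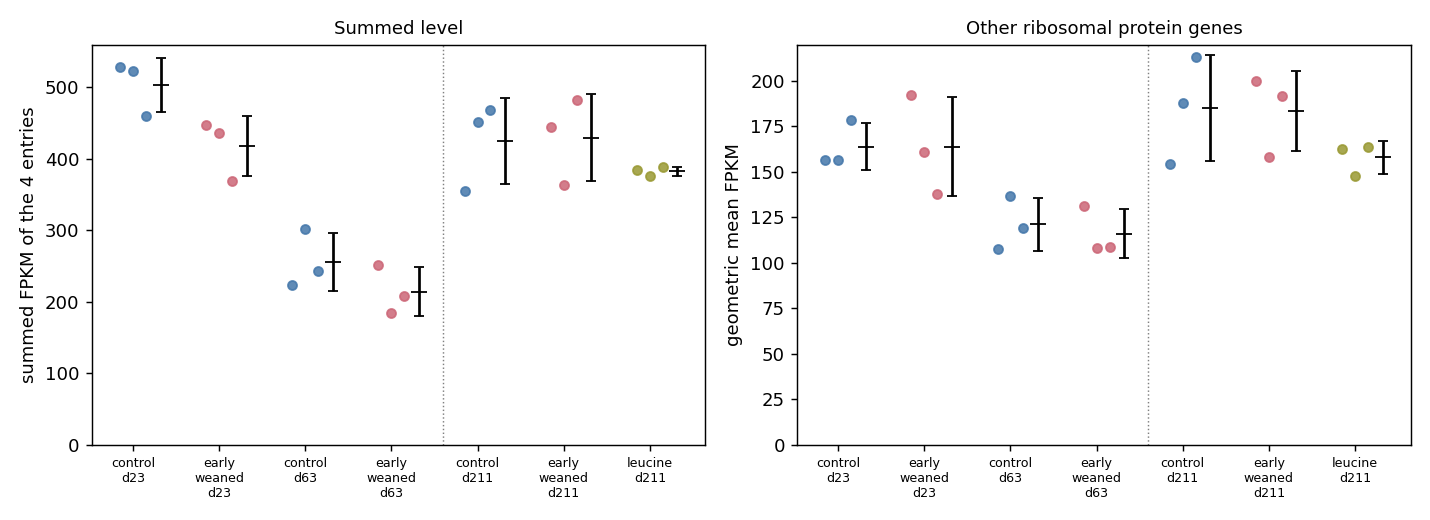
Left, summed FPKM of the 4 entries; right, geometric mean FPKM of the other ribosomal protein genes; both by group, with 1 point per library and the mean ± SD of 3, and a dotted line between the Wistar and SD tables. The d63 libraries, at 184 to 301 summed FPKM, lie below the d23 libraries, at 370 to 529.

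At d23 the parts moved in opposite directions, and the sum differed by less than each copy. The difference of early weaned from control on the log2 scale, from edgeR's fit, was 0.46 (SE 0.226) for Rpl12, −2.16 (0.183) for AABR07070810, −1.07 (0.181) for the X-linked entry, −0.97 (0.377) for the chromosome 7 entry and −0.23 for the sum of counts. In FPKM, Rpl12 was 90.5 higher, from a mean of 224 to 315, while the 3 copies together were 176.7 lower, from 280 to 103. The gain of Rpl12 was smaller than the loss from the copies. The ratio of the mean sums, early weaned to control, was 0.829. Over all genes in this comparison the percentage that edgeR called at adjusted p below 0.05 was 0.013%, which was 2 of 15416 genes. They were AABR07070810, whose difference here chose the set, and Cd274, an immune checkpoint ligand named because the count is so small. DESeq2 called 48 genes higher and 65 lower here. FPKM values did not overlap between the groups for 8.3% of all genes, and for all 4 entries. Nothing is read from these counts, since this comparison chose the entries. Summed hepatocyte markers also differed here, at 75820 to 113300 FPKM in controls and 55840 to 68280 in early weaned livers, and their part in the result was not tested.

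Shares separated the d23 groups more tightly than levels did. Rpl12 made up 44.3%, 44.3% and 45.0% of the summed FPKM in d23 controls and 75.6%, 74.9% and 75.8% in d23 early weaned livers. The spread within either group was under 1 percentage point, while the sums ran from 460 to 529 and from 370 to 447 FPKM. AABR07070810 supplied 23.3%, 29.2% and 24.8% in controls and 6.77%, 7.25% and 7.28% in early weaned livers. The X-linked entry supplied 29.4%, 23.0% and 27.6% in controls and 15.8%, 16.3% and 14.6% in early weaned livers. Rpl12 exceeded AABR07070810 by a ratio of 1.90, 1.52 and 1.81 in controls and of 11.2, 10.3 and 10.4 in early weaned livers. Among the copies, the X-linked entry was level with AABR07070810 in controls (ratio 1.05 ± 0.242, SD, n = 3) and above it in early weaned livers (2.20 ± 0.173), without overlap.

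**Figure D3:**
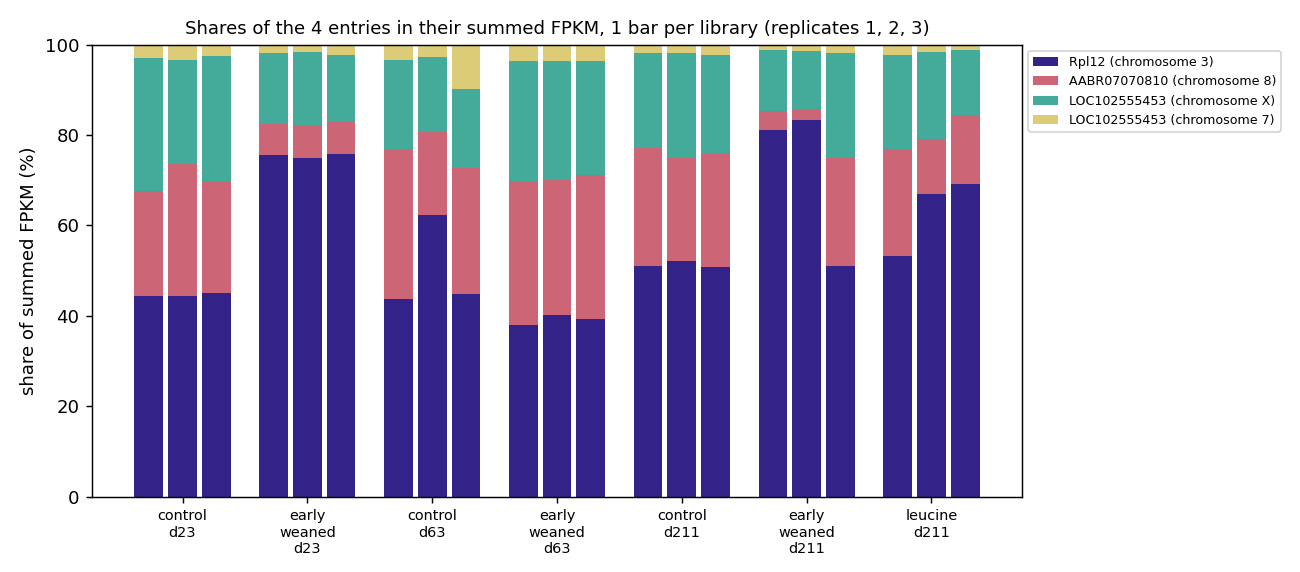
Share of each entry in the summed FPKM of the 4 (y axis, %), with 1 stacked bar per library, replicates 1 to 3 within each group from left to right. The Rpl12 segment reaches about 75% in the 3 early weaned d23 bars and 81.0% and 83.3% in early weaned d211 replicates 1 and 2, and it is 51.1% in replicate 3, as in the d211 controls.

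At d63, in libraries the choice of entries did not use, none of the 4 entries was called as different with early weaning. EdgeR's quasi-likelihood test with Benjamini-Hochberg adjustment gave log2 differences of −0.57 for Rpl12 (SE 0.227, adjusted p = 0.794), 0.12 for AABR07070810 (SE 0.175, adjusted p = 0.996), 0.37 for the X-linked entry (SE 0.179, adjusted p = 0.822) and −0.67 for the chromosome 7 entry (SE 0.376, adjusted p = 0.867). The sum had −0.21. In this comparison edgeR called 0% of all 15416 genes, with 933 genes at an unadjusted p below 0.05, of which Rpl12 was 1. DESeq2 called 94 genes there, and limma called 2 on log2(FPKM + 0.1) and 0 on log2(FPKM + 1). AABR07070810 had 65.7 ± 9.85 FPKM in controls and 67.1 ± 12.6 in early weaned livers (SD, n = 3). Summed endothelial markers were 26.9 to 43.4 FPKM in controls and 15.8 to 25.0 in early weaned livers here, and their part in these values was not tested.

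The shares at d63 went the other way from those at d23. Rpl12 made up 43.6%, 62.3% and 44.9% of the sum in controls and 38.0%, 40.2% and 39.4% in early weaned livers. The groups did not overlap, and control replicate 2 alone lay far above the others. The X-linked entry supplied 19.6%, 16.7% and 17.4% in controls and 26.4%, 26.1% and 25.3% in early weaned livers, without overlap. AABR07070810 supplied 33.3%, 18.3% and 27.8% against 31.95%, 29.95% and 31.8%, which overlapped. Non-overlapping FPKM was found for 18.6% of all genes in this comparison, which is the background for the separation of Rpl12 levels. It is not a background for shares. In other ribosomal protein families, such as L31 and L7A, the share of the most abundant entry did not overlap here either.

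At d211 no entry passed the test either, and 1 library decided the values. EdgeR's quasi-likelihood test gave log2 differences of early weaned from control of 0.26 for Rpl12 (SE 0.188, adjusted p = 0.549), −1.39 for AABR07070810 (SE 0.737, adjusted p = 0.382), −0.60 for the X-linked entry (SE 0.291, adjusted p = 0.332) and −0.60 for the chromosome 7 entry (SE 0.312, adjusted p = 0.375). The sum had −0.17 by counts and 0.02 as a ratio of mean FPKM sums. Of all 15019 genes 0.719% were called, and 25% had FPKM values that did not overlap, as Rpl12 had. Without early weaned replicate 3, AABR07070810 had −3.10 (SE 0.395, adjusted p = 0.0335), the X-linked entry had −1.01 (adjusted p = 0.166) and Rpl12 0.41 (adjusted p = 0.394). Replicate 3 is the library whose AABR07070810 value stood apart, so nothing is read from the fit without it. Without replicate 2 or replicate 1 of the same group, AABR07070810 had −0.89 (adjusted p = 0.514) and −1.01 (adjusted p = 0.668). The calls over all genes also moved, with 333 higher and 201 lower without replicate 2, and 1 higher and 1 lower without replicate 1.

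Shares at d211 showed the same division within the early weaned group. Rpl12 made up 51.0%, 52.2% and 50.9% of the sum in controls and 81.0%, 83.3% and 51.1% in early weaned livers. AABR07070810 supplied 26.2%, 22.7% and 24.9% in controls and 4.37%, 2.35% and 23.7% in early weaned livers. The ratio of Rpl12 to AABR07070810 was 1.95, 2.30 and 2.05 in controls and 18.6, 35.5 and 2.15 in early weaned livers. Early weaned replicates 1 and 2 thus had a composition unlike any control, and replicate 3 had that of a control. The labels give no batch or other detail that sets replicate 3 apart. Summed bile duct markers were 15.1 to 29.4 FPKM in early weaned livers, 7.58 to 12.5 in controls and 8.47 to 14.1 with leucine, and their part in these values was not tested. That sum is mostly Epcam, at 7.14 to 28.3 FPKM over the SD libraries, beside 0.441 to 2.17 for Krt19 and at most 0.129 for Krt7.

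With leucine the composition lay between those extremes. Rpl12 made up 53.3%, 66.9% and 69.1% of the sum, all above the d211 controls, and AABR07070810 supplied 23.6%, 12.2% and 15.4%, with the first inside the control range. In other ribosomal protein families, such as L30 and S10, the share of the most abundant entry did not overlap between leucine and control livers either. Against early weaned livers without leucine, edgeR's quasi-likelihood test gave −0.17 on the log2 scale for Rpl12 (SE 0.188, adjusted p = 0.804) and 0.66 for AABR07070810 (SE 0.727, adjusted p = 0.804), with 0.10 for the X-linked entry, 0.14 for the chromosome 7 entry and −0.02 for the sum. In that comparison 0.36% of all genes were called and 22.9% did not overlap in FPKM, while all 4 entries overlapped. Without early weaned replicate 3, AABR07070810 had 2.38 (adjusted p = 0.0829). Summed stellate cell markers were 11.9 to 14.6 FPKM with leucine and 8.73 to 11.1 without, and their part was not tested either. Against controls, the leucine group had 0.08 for Rpl12 (adjusted p = 0.911), −0.72 for AABR07070810 (adjusted p = 0.774), −0.50 for the X-linked entry (adjusted p = 0.554), −0.45 for the chromosome 7 entry (adjusted p = 0.634) and −0.19 for the sum, with 0.0133% of all genes called. AABR07070810 was lower in all leucine libraries than in all controls, and 16.3% of all genes did not overlap there. These d211 comparisons share libraries, so they are not independent of each other.

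**Figure D4:**
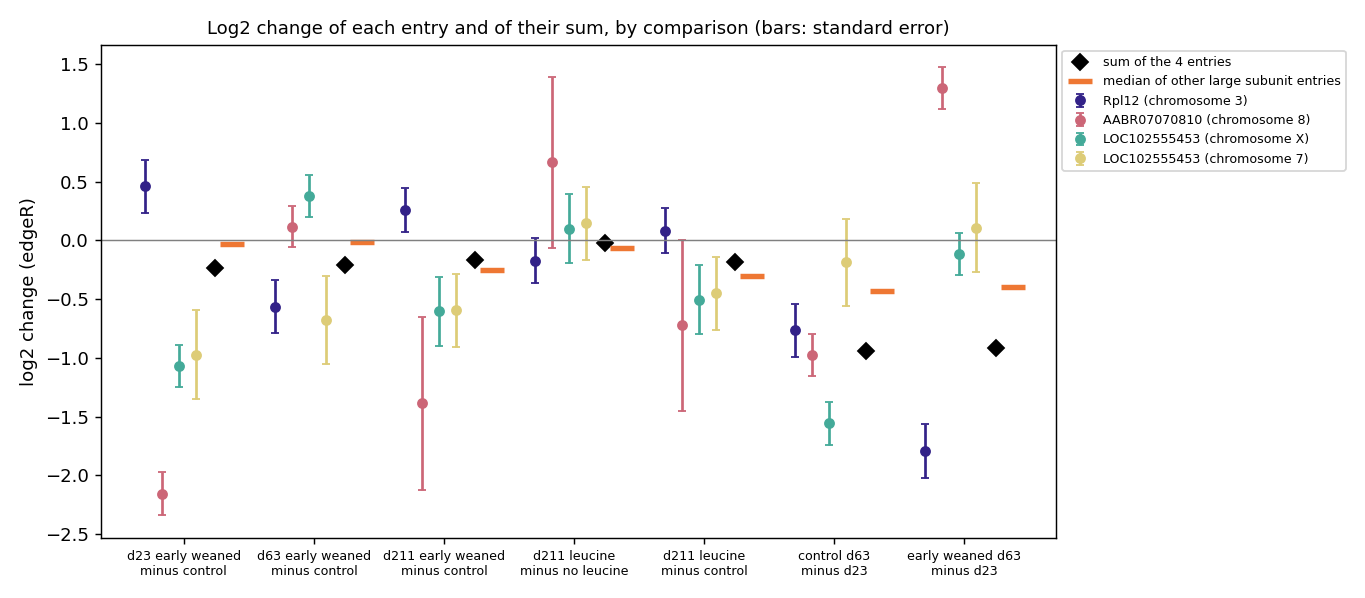
Log2 change from edgeR (y axis) of each entry (points, bars give the standard error), of the summed counts (diamonds, no error shown) and the median of the other large subunit entries (orange lines), for 7 comparisons (x axis). Diamonds stay between −0.23 and −0.02 in the comparisons within an age and lie at −0.94 and −0.92 between ages.

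The summed level was lower at d63 than at d23 in both Wistar groups by about the same amount, with entries that differed in direction among the early weaned livers. These values share the d23 libraries that chose the entries and are given without a test. In controls the log2 difference of d63 from d23 was −0.77 for Rpl12, −0.98 for AABR07070810, −1.56 for the X-linked entry, −0.19 for the chromosome 7 entry and −0.94 for the sum, all negative. In early weaned livers it was −1.79 for Rpl12, 1.30 for AABR07070810, −0.12 for the X-linked entry, 0.11 for the chromosome 7 entry and −0.92 for the sum. There Rpl12 went from 315 to 83.7 FPKM, while the 3 copies together went from 103 to 131. Over all 15416 genes, 17.6% were called in controls and 27% in early weaned livers. The percentage of genes called for a difference of the early weaning change between the ages was 0.00649%, and nothing is read from it for the entries. Summed endothelial markers went from between 52.8 and 67.6 FPKM at d23 to between 15.8 and 43.4 at d63, and stellate markers from between 21.5 and 31.7 to between 9.42 and 13.8. Lymphocyte markers went from between 1.26 and 2.21 to between 2.32 and 5.85, bile duct markers in controls from between 8.08 and 10.01 to between 5.85 and 7.63, and hepatocyte markers in early weaned livers from between 55840 and 68280 to between 75440 and 83900, and their part in these values was not tested.

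The other ribosomal protein genes were set beside these values. They are the partners of L12 in both subunits, taken from a list of 46 large subunit symbols, for which 50 entries were tested, and a list of 32 small subunit symbols with 32 entries, along with 15 symbols for translation and assembly factors with 14 entries. Between early weaned and control livers at d23, edgeR called 0 entries of these 3 lists, 0 also had an unadjusted p below 0.05, and DESeq2 and limma called 0. The median log2 differences were −0.033, 0.026 and −0.030, beside −0.032 for all genes. At d63 edgeR, DESeq2 and limma called 0 entries, with 2 large subunit entries and 1 factor at an unadjusted p below 0.05, and the medians were −0.014, 0.008 and −0.060, beside −0.010 for all genes.

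Of the stalk partners at d23, Rplp0, which anchors the stalk, had 512 ± 26.4 FPKM in controls and 534 ± 43.6 in early weaned livers (SD, n = 3), a log2 difference of 0.03. Rplp1 had −0.04 and Rplp2, the other acidic stalk protein, 0.07. Rpl11, a protein of the central protuberance and not the uL11 protein despite its number, had −0.00. None of these 4 passed edgeR's test in any comparison of early weaned and control livers, nor with leucine.

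Between d23 and d63 some ribosomal protein genes fell, and most entries of the lists did not pass. By edgeR 7 large subunit entries (14%), 8 small subunit entries (25%) and 1 factor (7.14%) fell in controls, beside 9.61% of all genes, and 0 rose. The medians were −0.43, −0.41 and −0.10, beside −0.04 for all genes. In controls Rpl3 (−0.85, adjusted p = 0.0123), Rps10 (−0.58, adjusted p = 0.0147), Rps23 (−0.74, adjusted p = 0.0189) and Rpl32 (−0.68, adjusted p = 0.0211), all structural proteins of the ribosome, had the smallest p. In early weaned livers 11 large subunit entries (22%), 12 small subunit entries (37.5%) and 2 factors (14.3%) fell, beside 13.5% of all genes, and 0 rose, with medians of −0.40, −0.41 and −0.21, beside −0.02 for all genes. Rps6, the substrate of S6 kinase, had −0.81 (adjusted p = 0.00713), Rps12 −1.12 (adjusted p = 0.00924), 1 of the Rpl32 entries −0.76 (adjusted p = 0.00941) and Rplp1 −0.78 (adjusted p = 0.0124). The counts in controls rested on single libraries. Without d23 control replicate 1, d63 control replicate 1 or d63 control replicate 3 they were 0 for both subunits, and without d23 control replicate 2 they were 1 each. They were also 0 with only the 2 groups in the fit. In early weaned livers the large subunit count was 2, 5 and 17 without d23 replicates 1, 2 and 3, and 1 and 3 without d63 replicates 2 and 3. The small subunit count there was 2 and 3 without d23 replicates 1 and 2, and 2 without d63 replicate 2 or 3. Whether the L12 sum differed more than the other ribosomal protein genes was not tested.

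At d211 the sign of the ribosomal list medians moved with the scaling of all genes, and relative to all genes both lists stayed lower. EdgeR on counts placed 47 of 50 large subunit and 30 of 32 small subunit entries lower in early weaned livers, with medians of −0.25 and −0.21 beside 0.02 for all genes, and called 0, with 10 and 3 at an unadjusted p below 0.05. On log2(FPKM + 0.1) limma had 24 and 17 of them higher, with medians of −0.00 and 0.02 beside 0.22 for all genes. Relative to the median of all genes, the large subunit list had −0.27 by edgeR and −0.23 by limma, and the small subunit list −0.23 and −0.21. DESeq2 called 0 and 1. Set against the geometric mean of the other ribosomal protein genes in the same library, which removes such scaling, the summed L12 level was 2.30, 2.40 and 2.20 times that mean in d211 controls, 2.22, 2.30 and 2.52 in early weaned livers and 2.36, 2.55 and 2.37 with leucine, and all groups overlapped. The same quantity was 3.38, 3.34 and 2.58 in d23 controls and 2.32, 2.71 and 2.68 in d23 early weaned livers, which overlapped. At d63 it was 2.08, 2.20 and 2.04 in controls and 1.91, 1.71 and 1.91 in early weaned livers, which did not overlap. In controls and in early weaned livers, every d63 value was below every d23 value. This difference between ages was not tested, and it includes the d23 libraries that chose the entries.

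Shifts of this kind occurred in other ribosomal protein families as well. Entries were grouped by the ribosomal protein their description names, and 50 families had at least 2 entries at a mean FPKM of 1 or more. The share of the family's most abundant entry differed by a median of 1.66 percentage points, in either direction, between d23 early weaned and control livers. The L12 family, with 30.9 points, ranked 2 of 50. The d23 comparison chose the L12 entries and not those of other families, so this rank is a description that the choice favoured. The L30 family ranked 1, with a difference of −31.1 points for Rpl30, in the opposite direction. At d63 the L12 family had −11.1 points and ranked 3, behind −21.7 for the L31 family. At d211 it ranked 1 for early weaned against control livers, with 20.4 points and 12.8 for the next family, and 3 for leucine against no leucine, with −8.71 points and 31.3 for the L30 family. Over the libraries the Rpl12 share ran from 38.0% to 75.8% in Wistar and from 50.9% to 83.3% in SD rats, ranges that ranked 4 and 5 of 50. The Wistar range includes the d23 libraries that chose the entries.

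**Figure D5:**
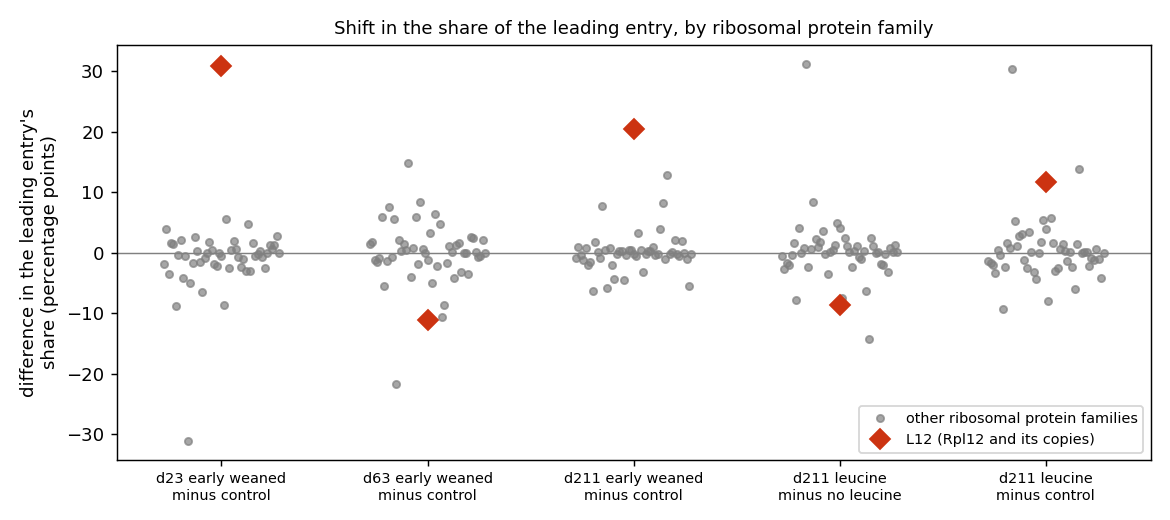
Difference in the share of the most abundant entry (y axis, percentage points of the family's summed FPKM) for 50 ribosomal protein families (points) in 5 comparisons (x axis). The L12 family (red diamonds) had 30.9 points at d23, where the L30 family had −31.1, and most families lay within a few points of 0. The d23 comparison chose the L12 entries.

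The entries also differed in how they varied together over libraries. On log2(FPKM + 0.1), Pearson's r between Rpl12 and AABR07070810 was −0.28 over the 12 Wistar and −0.74 over the 9 SD libraries. AABR07070810 and the X-linked entry had 0.56 and 0.84, and the X-linked and chromosome 7 entries had 0.39 and 0.91. Rpl12 and the X-linked entry had 0.52 in Wistar rats, where both were lower at d63, and −0.50 in SD rats. These are descriptions over libraries that share groups, ages and depth, and the Wistar libraries include the d23 ones that chose the entries.

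Among 10266 genes the patterns most like that of Rpl12, by the mean of both correlations, were those of the nuclear receptor gene Ppard (0.92 in Wistar, 0.81 in SD), Ankrd50 (0.84 and 0.87) and the sulfhydryl oxidase gene Qsox1 (0.95 and 0.76). The most opposite were the apolipoprotein gene Apoa4 (−0.96 and −0.74), AABR07049503 (−0.79 and −0.89) and the clock output gene Dbp (−0.90 and −0.73). For AABR07070810 the highest were Golt1a (0.57 and 0.88), AABR07060610 (0.63 and 0.82) and the X-linked entry, and the lowest were the riboflavin kinase gene Rfk (−0.91 and −0.81), AABR07035428 (−0.83 and −0.79) and LOC100361907 (−0.88 and −0.72). For the X-linked entry Ogfrl1, Zbed3 and Oxnad1 were highest and Msra, RGD1564614 and Acox3 lowest, with mean r from 0.78 to 0.83 and from −0.82 to −0.80. For the chromosome 7 entry Mcrip1, Fpgs and Mt-nd2 were highest (mean r 0.80, 0.76 and 0.69) and Iyd, Eif4g1 and LOC100911186 lowest (−0.77, −0.72 and −0.71). Rpl12 itself was not among the 3 genes most like any of its copies, in correlations that include the d23 libraries that chose the entries.

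Some neighbouring genes were at levels that overlapped those of an entry, and others were far below. Rpl12 contains Snora65, a small nucleolar RNA gene, at 0.647 to 6.53 FPKM, and lies between Lrsam1 (0.15 to 2.17 FPKM), a ubiquitin ligase gene, and Slc2a8 (2.29 to 4.65), a sugar transporter gene. The X-linked entry lies inside Syn1, a synapsin gene on the other strand at 0 to 0.13 FPKM, with Cfp and Timp1 as the nearest other named genes. The nearest named genes of AABR07070810 were Ick, 16859 bases away, and Gsta4, a glutathione transferase gene 7507 bases away at 58.1 to 150 FPKM. The range of Gsta4 overlapped that of AABR07070810. Those of the chromosome 7 entry were Cnot2, at 6.22 to 17.4 FPKM and so within the range of that entry, and Myrfl, at 0 to 0.02. The labels do not state a stranded count, so reads of overlapping genes on opposite strands cannot be told apart. How the authors' counting placed reads that fit more than 1 of the 4 entries is not given in the sources used here. Each single entry's level is therefore uncertain. The sum of counts does not depend on how counted reads were divided among these 4. It can depend on shared reads that were dropped, counted more than once or placed at other loci, which cannot be checked here.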

How the data were processed

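RNA was measured in 21 rat liver libraries. Per the file headers, the authors deposited counts and FPKM values of each gene by library, in 1 table for Wistar and 1 for SD rats. The deposited FPKM values are normalized by the authors for length and fragments. The deposited counts, treated as estimated counts, are whole numbers whose low values fall at multiples of 4, so about 4 units stand for 1 fragment. Which aligner and counter were used is not given in the sources used here. Per the submitters' processing notes the builds are GRCm38 and mm10, which are mouse builds, while the tables hold rat identifiers.

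The members, lists and alternatives were chosen with earlier results of these data known, and the family shares were added after seeing the data. Each table was fitted alone with edgeR 4.0.16 in R 4.3.3 (TMM, filterByExpr with a minimum count of 10, quasi-likelihood test, two-sided), with Benjamini-Hochberg adjustment over 15416 Wistar or 15019 SD genes and a threshold of 0.05. The plan named edgeR if the tables held counts. Counts were already whole, so none was rounded. The biological coefficient of variation was 0.404 and 0.379. Standard errors follow from the log2 change and the F statistic. The summed row was fitted with the dispersion of the genes and has no test. Limma 3.58.1 and DESeq2 were alternatives, and the edgeR fit was tested on simulated data.

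Named genes are the members in every library, the other L12 entry, Rplp0, Rplp1, Rplp2 and Rpl11, the called list members of smallest p (at most 4 per comparison), the 3 genes of highest and lowest mean correlation with each member among genes reaching an FPKM of 1 in 0.5 or more of the libraries of each table, and overlapping or nearest named genes. Cd274 is outside this rule and was chosen after its values were seen.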

Additional observations from a re-analysis of the deposited data

Results flagged for a closer look

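The early weaning change of AABR07070810 on the log2 scale was 2.27 higher at d63 than at d23 (SE 0.251, edgeR's interaction contrast). The d23 values chose this entry and are part of the contrast, so the value is a description and no test is read from it. Rpl12 differed in opposite directions between early weaned and control livers at the 2 ages. Every early weaned library was above every control at d23, by a mean of 90.5 FPKM, and below every control at d63, by a mean difference of −47.8 FPKM. The same contrast for Rpl12 had −1.03 (SE 0.320) and was not called at adjusted p below 0.05. The d23 values are part of it too. The share of Rpl12 in the sum differed by 30.9 percentage points at d23 and by −11.1 points at d63, and that of the X-linked LOC102555453 by −11.1 points at d23 and 8.03 points at d63, each without overlap. The difference between the ages in these shares was not tested. FPKM did not overlap for 8.3% of all genes at d23, the comparison that chose the entries, and for 18.6% at d63. The leading shares of other ribosomal protein families, such as L31 and L7A, also did not overlap at d63.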

How the results depend on the processing

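Of 357 comparisons of a value with an alternative that kept all libraries, 329 held, and of 420 that left out 1 library, 385 held. An entry held if it was called at adjusted p below 0.05 in both fits or in neither. A change of sign between uncalled fits counted as held, as for the chromosome 7 entry at d63 (−0.94 to 0.047 without 1 library). A list count that stayed at 0 held too, and sums and shares held within the larger group SD. Most entries were not called, so these counts say little about sizes. Among the alternatives that kept all libraries, an entry's call was lost in 5 and gained in 1. No test is read from the d23 and age calls of the entries. The values below give their sizes, which can be close where a call changed. With only the 2 groups in the fit, edgeR called 0 genes lower at d23, so AABR07070810 was not called there. In such fits AABR07070810 had −2.14 at d23 and −0.98 between ages in controls, beside −2.16 and −0.98. Rpl12 between ages in controls had −0.77 with 2 groups, −0.76 without a filter and −0.79 with the replicate block, beside −0.77. By DESeq2 the X-linked entry at d23 had −1.06, beside −1.07. By counts, the Rpl12 share at d23 differed by 29.7 points and the AABR07070810 share between ages in early weaned livers by 22.6 points. The large subunit count between ages in controls was 0 with 2 groups and 19 by DESeq2, and the small subunit count 0 with 2 groups; the factor count was 0 with 2 groups, no filter or the block, and 2 by limma on log2(FPKM + 1) or DESeq2. In early weaned livers they were 31, 30 and 20 for the large subunit by limma (pseudocounts 0.1 and 1) and DESeq2, 7 for the small subunit without a filter or with the block, and 1 (no filter, block) or 4 (limma, DESeq2) for factors. At d211 DESeq2 called 1 small subunit entry in early weaned livers and 2 large subunit entries with leucine, both against controls.

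Leaving out 1 library gave ranges of −1.11 to −0.60 for Rpl12 and −0.89 to 0.0798 for the chromosome 7 entry between ages in controls, and −3.10 to −0.89 for AABR07070810 in early weaned livers at d211. The counts between ages ran from 0 to 7, 0 to 8 and 0 to 3 for the large subunit, small subunit and factors in controls, and from 1 to 17, 2 to 12 and 0 to 1 in early weaned livers.

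The replicate numbers did not pair the libraries: same-numbered libraries had deviations correlated at −0.108 to 0.127 in Wistar and −0.0902 to 0.122 in SD rats. No further cytosolic L12 entry was found, so the planned larger sum was not run. The cause of these changes was not tested. The lowest count of an entry was 219 units, where about 4 units stand for 1 fragment, and each group had 3 libraries. Which of these limits the values more was not compared.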
